A study of Mus musculus with 9 samples.

Results

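The genes described here are the growth factors of the fibroblast (FGF), platelet-derived (PDGF), epidermal (EGF), vascular endothelial (VEGF), angiopoietin and hepatocyte (HGF) families, with their receptor tyrosine kinases, in 3T3-L1 cells. They were picked by a rule on gene symbols, chosen with earlier results of these data known. Each gene was read from its brightest probe set, the 1 with the highest mean over the 9 arrays among probe sets annotated to that gene only. In all, 56 of 18193 genes on the array met the rule. They comprised 36 ligands, 15 receptors, 4 intracellular FGF-related proteins (Fgf11 to Fgf14) and Fgfr1op2, which carries the letters of a receptor symbol but is not an FGF receptor. The EGF-family ligand Areg had no probe set under that symbol and was not analysed here.

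3T3-L1 cells are mouse fibroblasts of an established line that can be made to become adipocytes in a dish. The study compared 3 groups of 3 arrays, each from total RNA. The preadipocyte group was the undifferentiated line, with no siRNA. The control siRNA group was adipocytes induced with insulin (10 µg/ml), the glucocorticoid dexamethasone (1 µM) and the phosphodiesterase inhibitor IBMX (0.5 mM), then detached and electroporated at day 14 with a non-targeting oligonucleotide. The PPAR gamma siRNA group was handled in the same way, with oligonucleotides directed at the messenger RNA of PPAR gamma, a nuclear receptor needed to form fat cells. Either 2 or 3 nmol of siRNA was used, and which array had which amount, and the time from electroporation to harvest, are not given in the sources used here. Adipocytes were detached and electroporated and preadipocytes were not described as such, so that handling and differentiation cannot be told apart in comparisons with preadipocytes. The labels describe maturity as nearly all cells having fat cell shape, which leaves room for some unconverted cells. The series text calls the replicates technical, so every p-value below measures only the spread between these arrays.

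Growth factors of these families are secreted or membrane-bound proteins that pair up receptor tyrosine kinases at the cell surface, which then signal through adaptor proteins to the ERK and AKT kinases. In fat tissue, PDGF receptors mark the stromal cells from which adipocytes arise, VEGF-A and the angiopoietins act on the endothelium of the capillary bed, and FGF21 acts on adipocytes through FGFR1 and its co-receptor beta-Klotho. Many FGFs, VEGF-A and HB-EGF also bind heparan sulphate on the cell surface and in the matrix.

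Of the 56 genes, 41 had a promoter in the RefSeq table of build GRCm38.p6. The 250 bases before the annotated start are shown for Pdgfra, Fgf7, Vegfc and Met, as a receptor and a pair of ligands that were highest in preadipocytes and a receptor that was highest in control adipocytes, each changed by at least 2-fold in both the differentiation and the knockdown comparison. Opposite calls of this size were found for 8 genes, and windows were taken for 6 of them. A filter on chromosome left out the other genes, Fgf1 and Pdgfrb, so their promoters were not examined. The windows of Btc, with no match to the motifs searched, and Erbb2, with a CCAAT box at 41 to 37 bases before the start, are not shown. Capitals mark matches to the motifs searched.
Pdgfra (chr5:75152001-75152250, plus strand): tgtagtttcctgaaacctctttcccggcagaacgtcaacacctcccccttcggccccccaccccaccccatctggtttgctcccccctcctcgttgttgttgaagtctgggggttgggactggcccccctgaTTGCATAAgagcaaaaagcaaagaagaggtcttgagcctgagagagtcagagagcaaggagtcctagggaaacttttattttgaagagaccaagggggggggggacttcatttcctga
Fgf7 (chr2:126034408-126034657, plus strand): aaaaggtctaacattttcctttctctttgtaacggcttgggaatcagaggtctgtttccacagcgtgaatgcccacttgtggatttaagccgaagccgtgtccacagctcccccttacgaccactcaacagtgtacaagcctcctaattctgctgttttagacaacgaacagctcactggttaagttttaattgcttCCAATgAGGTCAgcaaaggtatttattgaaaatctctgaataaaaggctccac
Vegfc (chr8:54077282-54077531, plus strand): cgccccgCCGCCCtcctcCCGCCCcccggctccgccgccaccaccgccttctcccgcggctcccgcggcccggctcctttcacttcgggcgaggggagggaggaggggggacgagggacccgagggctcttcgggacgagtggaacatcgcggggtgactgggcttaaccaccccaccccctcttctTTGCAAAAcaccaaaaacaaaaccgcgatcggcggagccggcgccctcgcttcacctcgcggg
Met (chr6:17463707-17463956, plus strand): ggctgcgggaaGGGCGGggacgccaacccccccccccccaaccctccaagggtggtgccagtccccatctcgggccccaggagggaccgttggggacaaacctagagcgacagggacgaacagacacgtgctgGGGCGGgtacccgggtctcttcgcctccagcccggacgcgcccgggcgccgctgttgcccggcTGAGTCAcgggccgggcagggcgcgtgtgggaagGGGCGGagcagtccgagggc
Both strands were searched for the C/EBP-type motif TTGCNNAA, the AP-1 motif TGANTCA, the GC box GGGCGG, the CCAAT box CCAAT, the TATA box TATAAA, the GATA motif AGATAA, the nuclear receptor motif AGGTCA, and a direct repeat of AGGTCA spaced by 1 base, which contains the former. The Pdgfra window held a C/EBP-type match 118 to 111 bases before the start. The Vegfc window held another at 63 to 56 bases, and GC boxes on the other strand at 243 to 238 and 232 to 227 bases. In all, 9.56% of the 32851 promoter windows in the table held this C/EBP motif and 32.7% a GC box. The Fgf7 window held a CCAAT box at 53 to 49 bases and AGGTCA at 47 to 42 bases, motifs found in 33.8% and 14.0% of windows. The Met window held an AP-1 match at 54 to 48 bases, which reads as a match on both strands and occurs in 6.75% of windows, and GC boxes at 239 to 234, 117 to 112 and 20 to 15 bases. The direct repeat, present in 0.0335% of all windows, had no match in these 4 windows, nor had the TATA box (12.4% of windows) or the GATA motif (9.99%). A match describes the letters of the window and is not evidence of binding.

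The values are the authors' log2 probe set levels, taken as normalised between arrays because the array medians are near equal, and they ran from 2.41 to 14.59 with a median of 4.86. No detection call was used here, so values well under that median are called dim here. A change is the difference between group mean log2 levels, given ± its standard error (SE) from 1 limma fit to all 9 arrays, and a gene was called changed at a Benjamini-Hochberg adjusted p under 0.05 over 45037 probe sets. Pparg itself stood at 8.22 ± 0.12 (SD, n = 3) in preadipocytes, 12.79 ± 0.12 in control adipocytes and 9.59 ± 0.05 after PPAR gamma siRNA, a knockdown change of -3.20 ± 0.09 (limma adjusted p 1.27e-09). Of 7 adipocyte markers measured, 6 rose with differentiation, the exception being the dim Lep (0.14, limma adjusted p 0.333), and 6 fell after the knockdown. Among all genes tested, 27.1% rose with differentiation and 16.1% fell after the knockdown. Array medians ran from 4.82 to 4.89 and arrays of a group correlated at 0.994 to 0.998. The 3' minus 5' signal of Actb, a sign of RNA quality or labelling, was 0.23 to 0.36 in preadipocytes, 0.91 to 1.30 in control adipocytes and 0.54 to 1.25 after PPAR gamma siRNA, and the hybridisation control BioB-5 was 7.08 to 7.60, 8.44 to 8.73 and 7.95 to 8.49. Both measures move with differentiation. Calls of these genes that ended when the Actb value entered the fit are named beside them. Probes differ in brightness, so levels are compared between groups for a gene and not between genes.

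The 3 comparisons were control adipocytes against preadipocytes (differentiation), PPAR gamma siRNA against control siRNA (knockdown) and PPAR gamma siRNA against preadipocytes. Any 2 of them share a group of arrays, so values are set side by side and no overlap between comparisons is read from them. With differentiation, 9 of the 56 genes were higher (16.1%, against 27.1% of all genes tested) and 16 were lower (28.6%, against 24.7%). Changes of at least 2-fold were higher for 4 (7.14%, against 8.83%) and lower for 12 (21.4%, against 10.6%). After the knockdown, 11 were higher (19.6%, against 19.9%) and 8 lower (14.3%, against 16.1%), and by at least 2-fold 7 were higher (12.5%, against 5.68%) and 3 lower (5.36%, against 4.61%). The knockdown cells against preadipocytes had 11 higher (19.6%, equal to the 19.6% of all genes) and 15 lower (26.8%, against 16.9%), with 3 higher by at least 2-fold (5.36%, against 4.29%) and 8 lower (14.3%, against 5.01%). The counts at any size thus lay near the background in the knockdown. The share higher with differentiation lay below the background, and the share lower against preadipocytes lay above it. At 2-fold or more, the shares lower with differentiation, higher with the knockdown and lower against preadipocytes lay above the background. No test was run on these shares. The median change of the 56 genes was 0.06, -0.01 and -0.01 in the 3 comparisons, beside 0.09, -0.0088 and 0.07 over all genes. In all, 25 members were called in no comparison. For 20 members every group mean was under the median of all values, and among these Fgf20 and Fgf5 were called in a comparison.

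**Figure D1:**
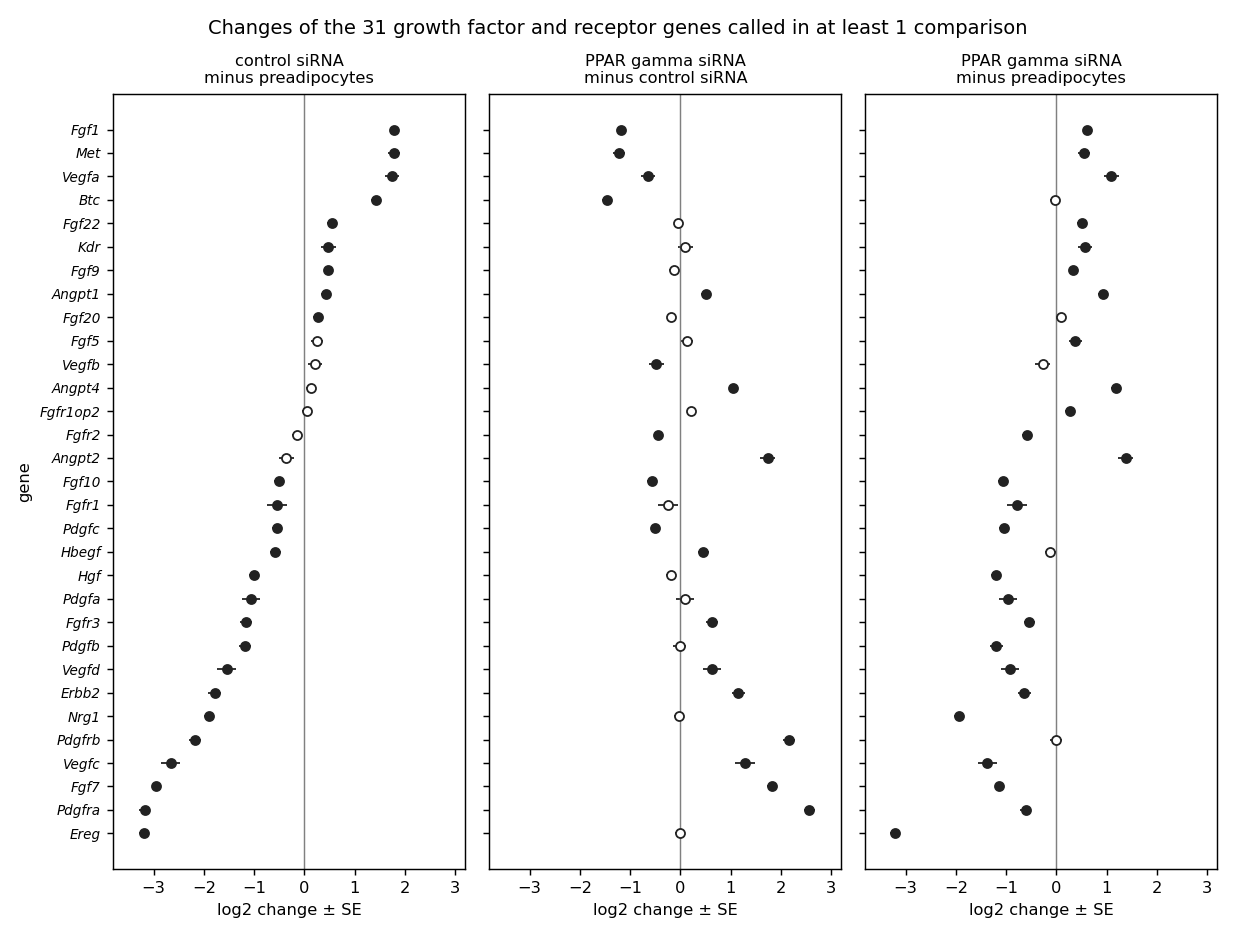
Change in mean log2 level (x axis, with bars of 1 SE from the limma fit) of the 31 genes called in at least 1 comparison, in 1 panel per comparison and ordered by the differentiation change. Filled points passed the test and open points did not: Pdgfra (-3.18, then 2.56) is filled in all 3 panels, Ereg (-3.20, then -0.01) is open in the knockdown panel and Angpt2 (-0.36, then 1.74) is open in the differentiation panel.

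Both PDGF receptors fell with differentiation and rose after the knockdown, while 3 of 4 PDGF ligands fell with differentiation and none was called higher after the knockdown on its brightest probe set. Pdgfra (probe set 1421917_at), the receptor that marks fat cell progenitors, read 11.68, 11.75 and 11.84 in preadipocytes, 8.70, 8.39 and 8.64 in control adipocytes, and 10.99, 11.28 and 11.17 after PPAR gamma siRNA. The 3 groups did not overlap, with the knockdown arrays between the other groups and nearer to preadipocytes. The change was -3.18 ± 0.11 with differentiation, or 9.06-fold lower (limma adjusted p 5.78e-10). It was 2.56 ± 0.11 with the knockdown, or 5.91-fold higher (limma adjusted p 1.57e-08). Knockdown cells stayed below preadipocytes by -0.61 ± 0.11 (limma adjusted p 0.00105). Its other probe sets changed by -3.87 and -2.67 with differentiation and by 2.18 and 1.40 with the knockdown.

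Pdgfrb (1436970_a_at), the receptor of mural and stromal cells that binds PDGF-BB, read 10.98, 11.02 and 11.11 in preadipocytes and 8.79, 8.75 and 9.04 in control adipocytes. After PPAR gamma siRNA it read 10.94, 10.88 and 11.25, which overlapped the preadipocyte arrays and lay above every control array. It fell 4.51-fold with differentiation (-2.17 ± 0.12, limma adjusted p 2.11e-08) and rose 4.48-fold with the knockdown (2.16 ± 0.12, limma adjusted p 8.16e-08). The difference between knockdown cells and preadipocytes was -0.01 ± 0.12 (limma adjusted p 0.951).

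Pdgfa, which signals through the alpha receptor, read 9.18, 8.64 and 8.36 in preadipocytes, 7.79, 7.60 and 7.61 in control adipocytes and 7.54, 7.83 and 7.92 after PPAR gamma siRNA. Preadipocyte arrays were the highest and the adipocyte groups overlapped. Its change was -1.06 ± 0.18 with differentiation (limma adjusted p 0.000413) and 0.10 ± 0.18 with the knockdown (limma adjusted p 0.771). Its other probe set gave -1.66 with differentiation and a called rise of 0.32 with the knockdown (limma adjusted p 0.0347). Pdgfb, the ligand of both receptors, read 6.22, 6.04 and 6.51 in preadipocytes, 5.20, 5.08 and 4.96 in control adipocytes and 5.23, 5.02 and 4.94 in knockdown cells. It fell by 1.18 on the log2 scale with differentiation (SE 0.13, limma adjusted p 9.92e-06). The adipocyte groups overlapped, with a knockdown change of -0.01 ± 0.13 (limma adjusted p 0.964). A dimmer probe set of Pdgfb was not called with differentiation (-0.25, limma adjusted p 0.126).

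Pdgfc, a ligand that must be cut by a protease to become active, was the PDGF ligand that fell in both comparisons. It read 9.14, 9.09 and 9.10 in preadipocytes, 8.65, 8.54 and 8.48 in control adipocytes and 8.14, 8.07 and 7.96 in knockdown cells. The groups stood in 3 separate steps, with changes of -0.55 ± 0.09 (limma adjusted p 0.000206) and -0.50 ± 0.09 (limma adjusted p 0.000748), and -1.05 ± 0.09 between knockdown cells and preadipocytes (limma adjusted p 2.42e-06). Pdgfd was dim, with group means of 3.27 to 3.33, and was not called.

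Markers of stromal cells moved with the PDGF receptors. Of 7 preadipocyte and fibroblast markers measured (Dlk1, Thy1, Col1a1, Col1a2, Col3a1, Postn and Cd34), 7 fell with differentiation and 6 rose after the knockdown, the exception being the dim Cd34 (0.23, limma adjusted p 0.249). Among all genes tested, 24.7% fell with differentiation and 19.9% rose after the knockdown. The markers were chosen with earlier results of these data known. The mean log2 level of these 7 markers per array was 11.97 to 12.15 in preadipocytes, 9.36 to 9.68 in control adipocytes and 10.52 to 11.06 after PPAR gamma siRNA. In bulk RNA of this kind, fewer cells of a type and less RNA per cell cannot be told apart, so whether the share of unconverted cells moved with these genes was not tested. Of 8 pericyte and smooth muscle markers, 4 rose and 1 fell with differentiation, where 27.1% of all genes rose and 24.7% fell. With the knockdown 2 rose and 2 fell, where 19.9% of all genes rose and 16.1% fell. Notch3 moved the way the receptors did (-1.09, then 1.73). Mcam (5.07, then -2.80) and Des (2.41, then -0.63) moved the other way. Myh11 rose in both comparisons (0.53, then 1.34) and Kcnj8 rose with differentiation (0.52). The pericyte gene Rgs5 stayed dim at 3.61 to 3.81. The mean of those 8 was 4.71 to 4.75, 5.66 to 5.77 and 5.63 to 5.71 in the 3 groups.

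**Figure D2:**
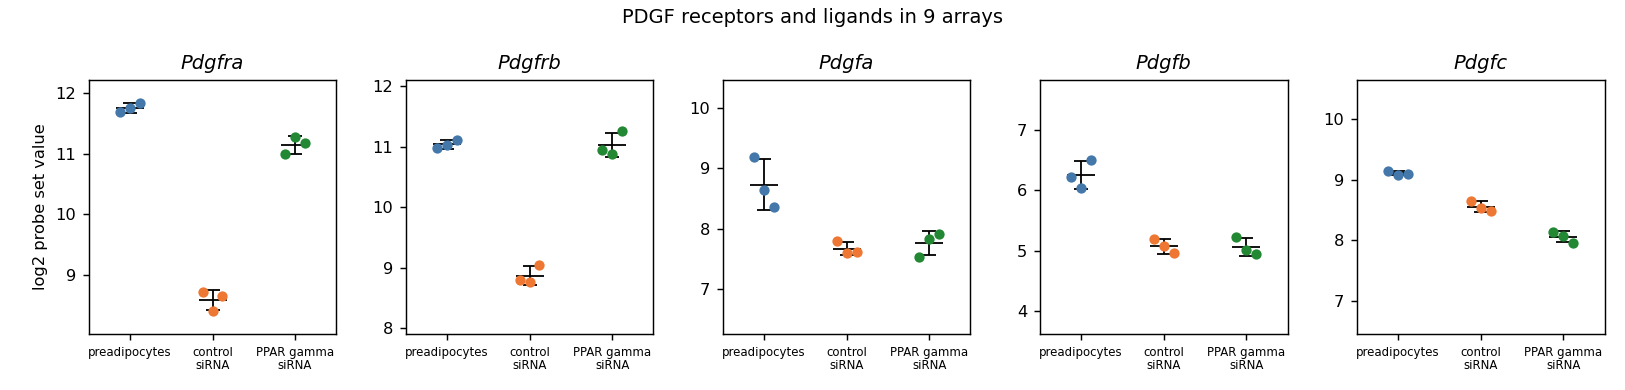
Log2 level of Pdgfra, Pdgfrb, Pdgfa, Pdgfb and Pdgfc, as 1 point per array in each group, with group means and error bars of 1 SD (n = 3) on an axis of its own for each gene. Pdgfra and Pdgfrb are low in control siRNA arrays (8.39 to 8.70 and 8.75 to 9.04), while Pdgfb is about as low after PPAR gamma siRNA (4.94 to 5.23) as with control siRNA (4.96 to 5.20).

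The VEGF ligands split with differentiation: Vegfa, the main signal for capillary growth, rose, while Vegfc and Vegfd, which act on lymphatic vessels, fell. Vegfa (1420909_at) read 8.77, 9.07 and 8.95 in preadipocytes, 10.71, 10.82 and 10.47 in control adipocytes and 10.32, 9.79 and 9.96 after PPAR gamma siRNA. Knockdown arrays lay between the other groups with no overlap. It rose 3.33-fold with differentiation (1.74 ± 0.14, limma adjusted p 9.41e-07), fell 1.56-fold with the knockdown (-0.64 ± 0.14, limma adjusted p 0.00476) and stayed above preadipocytes by 1.09 ± 0.14 (limma adjusted p 0.000108). Its other probe set gave 2.08, -0.89 and 1.19.

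Vegfc (1419417_at) read 9.42, 9.38 and 9.34 in preadipocytes, 7.17, 6.18 and 6.83 in control adipocytes and 7.99, 7.90 and 8.12 after PPAR gamma siRNA. Control arrays were the lowest and the most spread. It fell 6.32-fold with differentiation (-2.66 ± 0.19, limma adjusted p 2.98e-07) and rose 2.43-fold with the knockdown (1.28 ± 0.19, limma adjusted p 0.000285), leaving knockdown cells at -1.38 ± 0.19 from preadipocytes (limma adjusted p 0.000176). Its other probe sets gave -2.85 and -2.60 for differentiation and 1.37 and 1.35 for the knockdown. Vegfd read 11.42, 11.35 and 11.28 in preadipocytes, 9.98, 9.84 and 9.59 in control adipocytes and 9.96, 10.84 and 10.49 in knockdown cells. It fell 2.92-fold with differentiation (-1.55 ± 0.18, limma adjusted p 2.25e-05). Its knockdown rise of 0.63 ± 0.18 passed the test (limma adjusted p 0.0235), but 1 knockdown array lay within the control arrays, and the call ended in 6 of 19 alternative settings, among them leaving out PPAR gamma siRNA replicate 2 or 3 or control siRNA replicate 2 or 3, with adjusted p from 0.000496 to 0.0917. Its other probe sets were both called higher with the knockdown, by 0.82 (limma adjusted p 0.00184) and 0.82 (limma adjusted p 0.000459).

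Vegfb, a ligand of FLT1 known for its abundance in tissues rich in mitochondria, had group means of 10.31, 10.52 and 10.04. It did not pass the test with differentiation (0.21, limma adjusted p 0.28). Its knockdown change of -0.48 ± 0.15 passed (limma adjusted p 0.0309) with overlapping arrays and was lost in 7 of 19 settings, among them without PPAR gamma siRNA replicate 1 or 3 or control siRNA replicate 1 or 2, and adjusted p ran from 0.00762 to 0.19.

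All 3 angiopoietins, ligands of the endothelial receptor TEK, rose after the knockdown on their brightest probe sets. Angpt2 (1448831_at), which loosens contacts between vessel wall cells, read 7.14, 7.05 and 6.91 in preadipocytes, 6.48, 6.86 and 6.69 in control adipocytes and 8.04, 8.59 and 8.61 after PPAR gamma siRNA. Its knockdown arrays were the highest of all 9, at 3.33-fold over control adipocytes (1.74 ± 0.15, limma adjusted p 4.04e-06) and 2.60-fold over preadipocytes (1.38 ± 0.15, limma adjusted p 2.95e-05). With differentiation it changed by -0.36 ± 0.15 (limma adjusted p 0.0792). Angpt4 read 5.55, 5.42 and 5.47 in preadipocytes, 5.65, 5.67 and 5.50 in control adipocytes and 6.55, 6.60 and 6.84 in knockdown cells. The preadipocyte and control arrays overlapped (0.13, limma adjusted p 0.323) and the knockdown arrays lay above both, by 1.05 ± 0.10 (limma adjusted p 6.21e-06) and 1.18 ± 0.10 (limma adjusted p 2.86e-06). Angpt1, which stabilises vessels, rose in steps from a mean of 9.76 in preadipocytes through 10.19 in control adipocytes to 10.70 in knockdown cells. Its changes were 0.43 ± 0.10 (limma adjusted p 0.00419) and 0.51 ± 0.10 (limma adjusted p 0.00204). The differentiation call of Angpt1 was lost with the Actb value in the fit and the knockdown call was lost when its probe sets were averaged. In the knockdown, the other probe set of Angpt1 gave 0.34 (limma adjusted p 0.429). That of Angpt4 gave 0.66 (limma adjusted p 0.000763), and the dim one of Angpt2 gave -0.10 (limma adjusted p 0.421).

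None of the 4 receptors for these ligands was called in the knockdown. Kdr, the main VEGF-A receptor of endothelium, read 4.74, 4.61 and 4.99 in preadipocytes, 5.15, 5.46 and 5.14 in control adipocytes and 5.65, 5.14 and 5.25 in knockdown cells. These values lie close to the median of all probe sets. Its differentiation change of 0.47 ± 0.15 passed (limma adjusted p 0.0217), but was lost with the Actb value in the fit and without control siRNA replicate 2 or preadipocyte replicate 1 or 2, with adjusted p from 0.00906 to 0.0942 over the 19 settings, and the knockdown change was 0.09 ± 0.15 (limma adjusted p 0.726). Flt1, Flt4 and Tek had group means of 5.23 to 5.46, 4.62 to 4.76 and 3.34 to 3.43 and were not called. A dimmer probe set of Flt1 was called higher with differentiation (0.51, limma adjusted p 0.00725).

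Of 12 endothelial markers, the defining genes Pecam1, Cdh5, Tie1 and Vwf were dim, with group means of 3.30 to 4.14. The 3 markers with any group mean above the median of all values were Egfl7, Ramp2 and Erg. Egfl7 had group means of 7.32, 6.79 and 6.85 and fell with differentiation (-0.53, limma adjusted p 0.00301), as Ramp2 did (-1.49, limma adjusted p 4.02e-05), while Erg rose by 0.32 (limma adjusted p 0.00938). The mean over the 12 was 4.43 to 4.48 in preadipocytes, 4.33 to 4.44 in control adipocytes and 4.53 to 4.68 after PPAR gamma siRNA, and 1 of them, Ramp2, rose with the knockdown (2.16 ± 0.19, limma adjusted p 3.81e-06). Of 10 macrophage markers, Cd68 (1.20, limma adjusted p 0.00125) and Cd14 (1.78, limma adjusted p 8.91e-08) rose with the knockdown, and Cd68 also rose with differentiation (1.35, limma adjusted p 0.000298). With differentiation the dim Adgre1 rose (0.43, limma adjusted p 0.00461) and the dim Aif1 fell (-0.32, limma adjusted p 0.0354). Csf1r and Lyz2 had group means of 6.05 to 6.15 and 5.59 to 5.81 and were not called. Ptprc, Itgam, Cd163 and Mrc1 had group means of 3.09 to 3.46. The macrophage mean was 4.19 to 4.26, 4.42 to 4.45 and 4.66 to 4.91 in the 3 groups. Beside the counts of both marker lists, 27.1% of all genes rose and 24.7% fell with differentiation. With the knockdown 19.9% of all genes rose and 16.1% fell.

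**Figure D3:**
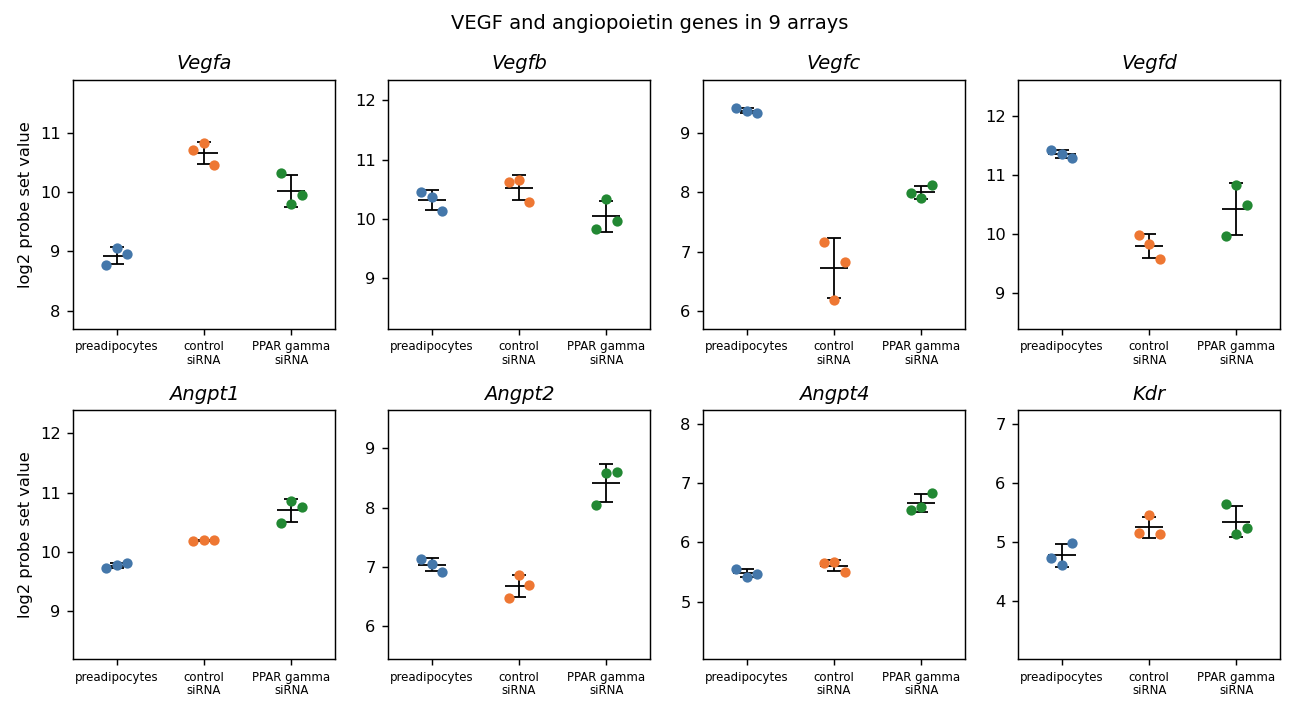
Log2 level of the 4 VEGF ligands, 3 angiopoietins and Kdr, as 1 point per array in each group, with group means and error bars of 1 SD (n = 3) on an axis of its own for each gene. Vegfa is highest with control siRNA (10.47 to 10.82), Vegfc is lowest there (6.18 to 7.17), and Angpt2 is highest after PPAR gamma siRNA (8.04 to 8.61).

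Among the 18 FGF ligands, Fgf7 and Fgf10 fell with differentiation, Fgf1, Fgf9, Fgf20 and Fgf22 rose, and 12 did not pass the test. Of all genes tested, 24.7% fell and 27.1% rose in that comparison. Fgf7 (1438405_at), a stromal factor that acts on epithelial cells, read 10.59, 10.79 and 10.78 in preadipocytes, 7.73, 7.73 and 7.85 in control adipocytes and 9.52, 9.66 and 9.59 after PPAR gamma siRNA. The groups lay far apart with little spread within each. It fell 7.73-fold with differentiation (-2.95 ± 0.09, limma adjusted p 2.08e-10), rose 3.52-fold with the knockdown (1.82 ± 0.09, limma adjusted p 4.13e-08) and stayed 2.19-fold under preadipocytes (-1.13 ± 0.09, limma adjusted p 1.87e-06). Its other probe set gave -2.85, 1.63 and -1.22.

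Fgf10, the related stromal ligand of FGFR2, moved in another way. It read 6.44, 6.40 and 6.26 in preadipocytes, 5.77, 5.77 and 6.06 in control adipocytes and 5.30, 5.37 and 5.25 in knockdown cells. The knockdown arrays were the lowest, by -0.56 ± 0.10 against control (limma adjusted p 0.00114) and -1.06 ± 0.10 against preadipocytes (limma adjusted p 8.79e-06). The differentiation change was -0.50 ± 0.10 (limma adjusted p 0.00153) and was lost with the Actb value in the fit.

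Fgf1 (1450869_at), a ligand of all FGF receptors that is known as a PPAR gamma target in adipose tissue, was highest in control adipocytes. It read 4.20, 4.23 and 4.35 in preadipocytes, 6.02, 6.02 and 6.09 in control adipocytes and 4.88, 4.82 and 4.88 after PPAR gamma siRNA. Each group was separate, with control arrays the highest. It rose 3.44-fold with differentiation (1.78 ± 0.08, limma adjusted p 5.13e-09) and fell 2.27-fold with the knockdown (-1.18 ± 0.08, limma adjusted p 4.94e-07), to 0.60 ± 0.08 above preadipocytes (limma adjusted p 0.000129). Its other probe sets gave 0.84 and 0.34 with differentiation, and -0.11 and 0.16 with the knockdown, so the knockdown change rests on the brightest probe set.

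Fgf21, the metabolic hormone of the family, read 4.87, 4.91 and 4.98 in preadipocytes, 4.94, 5.19 and 5.16 in control adipocytes and 5.04, 4.91 and 4.98 in knockdown cells. The groups overlapped, near the median of all probe sets, with changes of 0.17 (limma adjusted p 0.148) and -0.12 (limma adjusted p 0.411). Fgf9 and Fgf22 rose by 0.47 ± 0.09 (limma adjusted p 0.000793) and 0.55 ± 0.09 (limma adjusted p 0.000352) with differentiation and did not pass the knockdown test, at -0.14 and -0.04. The dim Fgf20 rose by 0.26 with differentiation (limma adjusted p 0.0363), a call lost in 9 of 18 settings, among them the Actb value in the fit and leaving out control siRNA replicate 1 or 3 or preadipocyte replicate 1 or 3. The dim Fgf5 was 0.37 higher in knockdown cells than in preadipocytes (limma adjusted p 0.0394), a call lost in 7 of 18, among them leaving out PPAR gamma siRNA replicate 1 or 2 or any preadipocyte replicate. Fgf2, the basic FGF that 3T3 cells respond to, had group means of 5.06, 4.97 and 4.77 and was not called. In all, 15 FGF ligands and intracellular FGF genes were called in no comparison on their brightest probe sets, with group means of 3.28 to 5.67 and no change over 0.29 in size. Among their dim probe sets, 1 of Fgf11 was called in both comparisons (0.45 and -0.47, limma adjusted p 0.000694 and 0.00088) and 1 of Fgf4 with differentiation (0.27, limma adjusted p 0.0263).

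Of the 4 FGF receptor genes, Fgfr1 and Fgfr3 fell with differentiation on their brightest probe sets, Fgfr2 did so on another probe set only, and after the knockdown Fgfr3 rose and Fgfr2 fell. Fgfr1, the main FGF receptor of fat cells, read 11.11, 10.76 and 10.55 in preadipocytes, 10.52, 10.31 and 9.95 in control adipocytes and 9.59, 10.19 and 10.27 in knockdown cells. The arrays were spread within every group, and the adipocyte groups overlapped. Its differentiation change of -0.55 ± 0.20 narrowly passed (limma adjusted p 0.0465) and was lost in 7 of 19 settings, among them leaving out control siRNA replicate 2 or 3, preadipocyte replicate 1 or 2 or PPAR gamma siRNA replicate 2, with adjusted p from 0.00838 to 0.182. Its knockdown change was -0.25 ± 0.20 (limma adjusted p 0.45), and its change of -0.79 ± 0.20 against preadipocytes (limma adjusted p 0.0108) was lost without preadipocyte replicate 1. Its other probe sets gave -0.69 (limma adjusted p 0.00838) and -0.30 (limma adjusted p 0.0655) with differentiation. Against preadipocytes they gave -0.76 (limma adjusted p 0.00714) and -0.51 (limma adjusted p 0.00678).

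Fgfr2, whose splice forms receive FGF7 or FGF9, had group means of 9.79, 9.64 and 9.20. It fell with the knockdown by 0.44 on the log2 scale (SE 0.09, limma adjusted p 0.00222), but a further probe set of the gene gave -0.98 with differentiation (limma adjusted p 9.43e-05, beside -0.15 and 0.183 for the brightest) and -0.33 with the knockdown (limma adjusted p 0.113). Fgfr3 read 6.93, 7.00 and 7.22 in preadipocytes, 5.80, 6.12 and 5.76 in control adipocytes and 6.49, 6.57 and 6.47 in knockdown cells. Its 3 groups were separate, with a fall of -1.16 ± 0.11 with differentiation (limma adjusted p 4.67e-06) and a rise of 0.62 ± 0.11 with the knockdown (limma adjusted p 0.00131). The other Fgfr3 probe set gave -0.52 and -0.25, and the knockdown call was lost when both were averaged. Fgfr4 was not called, with group means of 5.95 to 6.20, though a dim probe set of it was (0.29 and -0.29, limma adjusted p 0.0179 and 0.0277). With differentiation, probe sets of Fgfr1op2 were called in opposite directions (0.84, limma adjusted p 1.11e-05, and -0.83, limma adjusted p 0.00532). Against preadipocytes the same 2 were again opposed (0.65, limma adjusted p 0.000179, and -0.62, limma adjusted p 0.0374). The change of its brightest probe set, 0.26 against preadipocytes (limma adjusted p 0.0415), was lost in 9 of 19 settings, among them the Actb value in the fit and leaving out PPAR gamma siRNA replicate 1 or 3 or preadipocyte replicate 1 or 2.

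**Figure D4:**
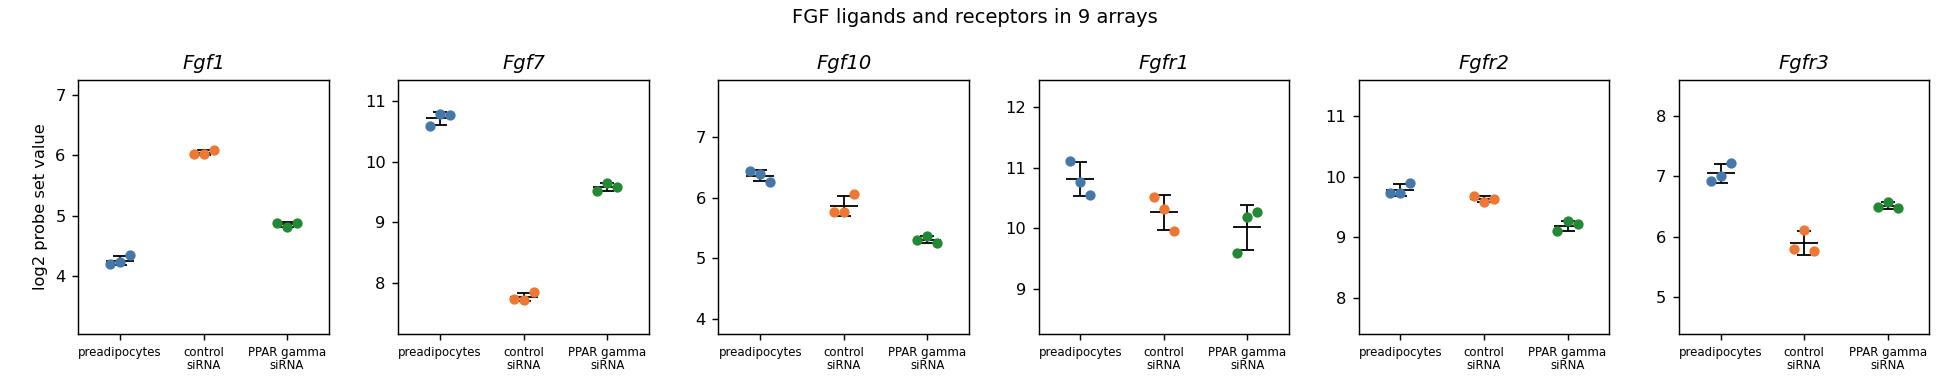
Log2 level of Fgf1, Fgf7, Fgf10, Fgfr1, Fgfr2 and Fgfr3, as 1 point per array in each group, with group means and error bars of 1 SD (n = 3) on an axis of its own for each gene. Fgf7 is lowest with control siRNA (7.73 to 7.85), Fgf1 is highest there (6.02 to 6.09), and the adipocyte groups of Fgfr1 overlap (9.95 to 10.52 and 9.59 to 10.27).

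In the EGF family, the ligands Ereg and Nrg1 fell with differentiation and did not pass the test in the knockdown, whereas Btc and the receptor gene Erbb2 changed in both. Ereg (1419431_at), epiregulin, a ligand of EGFR and ERBB4, read 7.38, 7.49 and 7.52 in preadipocytes, 4.37, 4.14 and 4.29 in control adipocytes and 4.17, 4.22 and 4.38 after PPAR gamma siRNA. Both adipocyte groups were dim and overlapped. It fell 9.17-fold with differentiation (-3.20 ± 0.10, limma adjusted p 1.9e-10), and the knockdown change was -0.01 ± 0.10 (limma adjusted p 0.961). Nrg1, neuregulin 1, a ligand of ERBB3 and ERBB4, had group means of 5.70, 3.80 and 3.77, with changes of -1.90 ± 0.10 (limma adjusted p 1.88e-08) and -0.03 ± 0.10 (limma adjusted p 0.872).

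Btc (1435541_at), betacellulin, also a ligand of EGFR and ERBB4, was high only in control adipocytes among the 3 groups. It read 4.76, 4.89 and 5.02 in preadipocytes, 6.41, 6.16 and 6.39 in control adipocytes and 4.93, 4.80 and 4.86 in knockdown cells. Knockdown and preadipocyte arrays overlapped (-0.03 ± 0.10, limma adjusted p 0.864). It rose 2.70-fold with differentiation (1.43 ± 0.10, limma adjusted p 2.25e-07) and fell 2.75-fold with the knockdown (-1.46 ± 0.10, limma adjusted p 5.4e-07). Hbegf, the heparin-binding EGF-like factor, had group means of 5.71, 5.13 and 5.58, with a fall of -0.58 ± 0.11 (limma adjusted p 0.00087), lost with the Actb value in the fit, and a rise of 0.46 ± 0.11 (limma adjusted p 0.00714), lost when its probe sets were averaged. Egf and Tgfa had group means of 4.56 to 4.73 and 5.11 to 5.36 and were not called. A dimmer probe set of Tgfa was called lower with differentiation (-0.38, limma adjusted p 0.0153) and against preadipocytes (-0.40, limma adjusted p 0.0183).

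Erbb2 (1424919_at), the receptor with no ligand of its own that pairs with the others, read 7.70, 7.70 and 7.55 in preadipocytes, 6.18, 5.65 and 5.77 in control adipocytes and 6.94, 7.04 and 7.06 in knockdown cells. The knockdown arrays were between the other groups. It fell 3.45-fold with differentiation (-1.79 ± 0.13, limma adjusted p 2.4e-07) and rose 2.22-fold with the knockdown (1.15 ± 0.13, limma adjusted p 2.41e-05).

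Egfr, the EGF receptor, depended on the probe set. The brightest of 7 (1460420_a_at) read 7.68, 7.69 and 7.56 in preadipocytes, 7.33, 7.53 and 7.44 in control adipocytes and 7.58, 7.70 and 7.47 in knockdown cells, and was not called (-0.21, limma adjusted p 0.0926, and 0.15, limma adjusted p 0.288). Probe sets 1435888_at and 1424932_at rose with the knockdown, by 1.66 (limma adjusted p 1.03e-05) and 1.22 (limma adjusted p 4.8e-05). With differentiation, 1435888_at fell by 1.07 on the log2 scale while 1432647_at rose by 0.60, so probe sets of this gene were called in opposite directions. Which transcripts each of them reads was not examined. Erbb3 and Erbb4 were dim, with group means of 4.25 to 4.32 and 3.34 to 3.37, and were not called.

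Hgf, hepatocyte growth factor, and its receptor gene Met moved in opposite directions with differentiation. Hgf (1451866_a_at) read 6.79, 7.00 and 7.08 in preadipocytes, 5.88, 6.0 and 5.97 in control adipocytes and 5.71, 5.88 and 5.68 in knockdown cells. Preadipocytes were the highest and the adipocyte groups touched, with changes of -1.01 ± 0.10 (limma adjusted p 4.19e-06) and -0.19 ± 0.10 (limma adjusted p 0.203). Met (1434447_at) read 8.82, 8.74 and 8.62 in preadipocytes, 10.57, 10.33 and 10.61 in control adipocytes and 9.05, 9.30 and 9.48 after PPAR gamma siRNA. Its groups were separate, with a 3.44-fold rise (1.78 ± 0.12, limma adjusted p 1.82e-07) and a 2.34-fold fall (-1.23 ± 0.12, limma adjusted p 1.05e-05). Its other probe set gave 1.33 and -1.21. The excess of Met over preadipocytes in knockdown cells, 0.55 ± 0.12 (limma adjusted p 0.00446), was lost with the Actb value in the fit and with averaged probe sets. None of 5 genes for HGF-activating proteases and their inhibitors (Hgfac, St14, Spint1, Spint2 and Hpn) was called by limma. Over all genes, 27.1% rose and 24.7% fell with differentiation, and 19.9% rose and 16.1% fell with the knockdown. At St14, a protease, the differentiation change was 0.34 (limma adjusted p 0.0506).

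**Figure D5:**
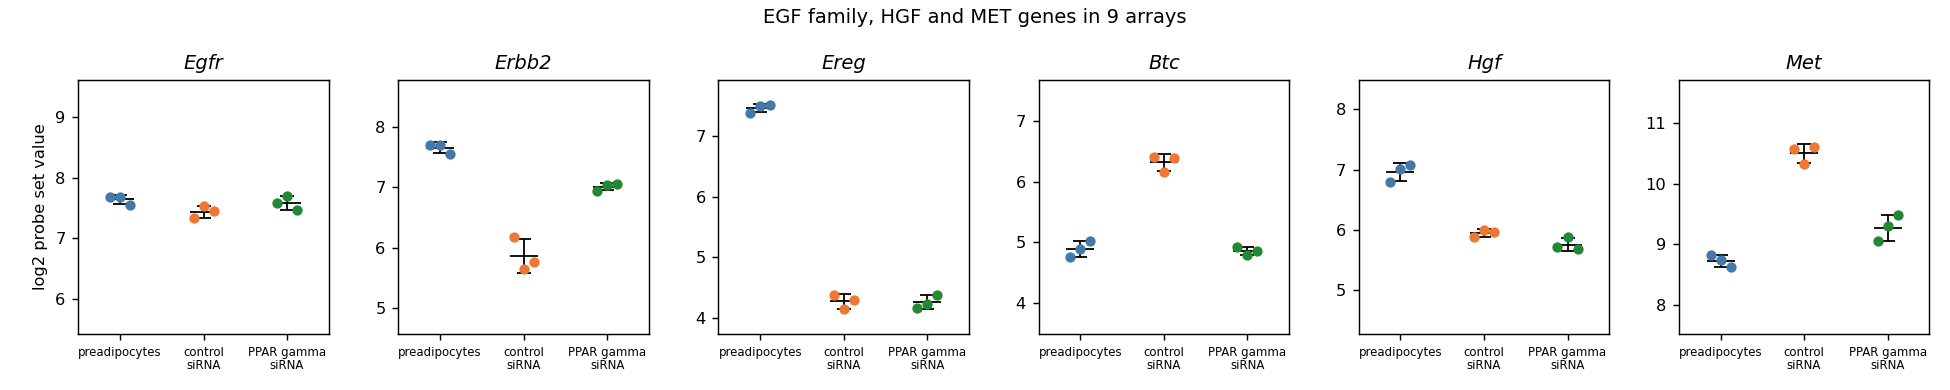
Log2 level of Egfr, Erbb2, Ereg, Btc, Hgf and Met, as 1 point per array in each group, with group means and error bars of 1 SD (n = 3) on an axis of its own for each gene. Ereg is high in preadipocytes (7.38 to 7.52) and dim in both adipocyte groups (4.14 to 4.38), Btc is high with control siRNA (6.16 to 6.41), and Erbb2 is lowest there (5.65 to 6.18).

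Where a gene was called from its brightest probe set and had further probe sets with a mean at or above the median of all values, these mostly moved the same way. With differentiation, 16 of 18 such probe sets were called in the same direction and 2 were not called. In the knockdown, 12 of 15 were called in the same direction and 3 were not called. Against preadipocytes, 19 of 21 were called in the same direction, 1 (of Fgfr1op2) in the opposite and 1 was not called. Probe sets of a gene read the same RNA and are no further replicates.

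Partners of the FGF receptors moved in both directions. Of 10 measured genes for FGF co-receptors and signalling partners, 2 rose and 3 fell with differentiation, where 27.1% of all genes rose and 24.7% fell. With the knockdown 2 rose and 3 fell, where 19.9% of all genes rose and 16.1% fell, and the 2 medians were 0.0007 and 0.19. Klb, which encodes the FGF21 co-receptor beta-Klotho, went from a mean of 4.50 in preadipocytes to 10.85 in control adipocytes and 6.99 after PPAR gamma siRNA. It changed by 6.36 ± 0.14 with differentiation (limma adjusted p 2e-11) and by -3.87 ± 0.14 with the knockdown (limma adjusted p 4.9e-09). Fgfrl1, an FGF receptor without a kinase domain, rose by 1.22 with differentiation and fell by 0.97 on the log2 scale with the knockdown. Il17rd, also called Sef and an inhibitor of FGF signalling, changed by -3.71 ± 0.12 and 1.78 ± 0.12, and Flrt3, a transmembrane partner of FGF receptors, by -2.25 and 1.06.

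The ligands and shedding proteins of the ERBB receptors that lie outside the chosen symbols included Nrg4. Nrg4, neuregulin 4, an ERBB4 ligand known as a secreted factor of brown fat, went from a mean of 3.96 to 9.10 and back to 4.86, with changes of 5.15 ± 0.10 (limma adjusted p 1.1e-11) and -4.25 ± 0.10 (limma adjusted p 4.43e-10). Of these 8 genes, 4 rose and 2 fell with differentiation, with a median of 0.30, where 27.1% of all genes rose and 24.7% fell. With the knockdown 2 rose and 3 fell, with a median of -0.15, where 19.9% of all genes rose and 16.1% fell. Adam10, a protease that sheds EGF-family ligands from the membrane, changed by -2.35 and 1.46, and Rhbdf1, a partner of the related protease ADAM17, by -0.83 and 0.93. Adam17 itself fell by 0.76 on the log2 scale with the knockdown.

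Genes that are switched on by ERK signalling or curb it were mixed in direction. Of 13 measured, 5 rose and 6 fell with differentiation, and 3 rose and 5 fell with the knockdown, with medians of -0.27 and -0.02. Among all genes, 27.1% rose and 24.7% fell with differentiation, and 19.9% rose and 16.1% fell with the knockdown. Dusp4, an ERK phosphatase, rose by 2.97 ± 0.19 and then changed by -3.20 ± 0.19 (limma adjusted p 1.46e-07), and Lrig1, which promotes loss of ERBB receptors, rose by 2.38 with differentiation. The Sprouty genes are feedback inhibitors of receptor tyrosine kinases. Of these, Spry1 (-1.81, then 0.99) and Spry2 (-1.13, then 0.72) moved the same way, and Spry4 (1.14, then -0.95) moved the other way. Spred2, a related inhibitor, changed by -1.72 with differentiation and 0.01 with the knockdown (limma adjusted p 0.951). Of 11 measured adaptors and kinases that lead to ERK, 4 rose and 4 fell with differentiation and 4 rose and 3 fell with the knockdown, with medians of -0.09 and 0.01. Among these, the adaptor genes Gab2 and Shc1 changed by 1.36 and -2.11 with differentiation. Map2k1, the MEK1 kinase gene, changed by -1.09 and 1.48, Sos2, a RAS activator, by 0.89 and -1.04, and the adaptor gene Gab1 rose by 1.33 with the knockdown.

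The list drawn up as inhibitors of vessel growth had 9 measured genes. It was chosen with earlier results of these data known, so its counts are no independent test. With differentiation 8 of the 9 fell and 1 rose, where 24.7% of all genes fell and 27.1% rose, with a median of -2.10 beside 0.09 over all genes. With the knockdown 7 rose and 1 fell, where 19.9% of all genes rose and 16.1% fell, with a median of 0.97 beside -0.0088. Thbs2, thrombospondin 2, changed by -4.01 ± 0.10 (limma adjusted p 6.23e-11) and 1.96 ± 0.10 (limma adjusted p 7.13e-08). Vash2 changed by -3.26 and 1.08, but this member of the vasohibin family is known to favour vessel growth rather than to inhibit it. Adamts1, a matrix protease that binds VEGF-A, rose by 2.19 ± 0.15 with the knockdown (limma adjusted p 4.34e-07). The gene that rose with differentiation (0.24, limma adjusted p 0.029) and fell with the knockdown was the dim Sema3e. The stromal markers moved with these genes, and their part in the result was not tested.

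VEGF and angiopoietin partners were mixed. Of 8 measured, 2 rose and 2 fell with differentiation and 1 fell with the knockdown, with medians of 0.08 and 0.03. Among all genes, 27.1% rose and 24.7% fell with differentiation, and 19.9% rose and 16.1% fell with the knockdown. Angptl4, a PPAR target that inhibits lipoprotein lipase, changed by 2.97 ± 0.08 and -2.92 ± 0.08 (limma adjusted p 1e-09), and Angptl6 rose by 1.27 with differentiation. The VEGF and semaphorin co-receptor genes Nrp1 and Nrp2 changed by -0.45 and -0.82 with differentiation. Of 8 factors that sense oxygen and control Vegfa in many cells, 3 rose and 3 fell with differentiation and 2 rose and 2 fell with the knockdown, with medians of -0.04 and -0.13. The HIF hydroxylase genes Egln3 and Egln1 rose by 6.03 ± 0.17 and 2.35 with differentiation, and Egln3 changed by -1.24 ± 0.17 with the knockdown. Hif1a changed by -1.04 with differentiation.

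Of 17 measured heparan sulphate proteoglycans and enzymes, 13 fell and 1 rose with differentiation, where 24.7% of all genes fell and 27.1% rose, with a median of -0.77 beside 0.09 over all genes. With the knockdown, 7 rose and 1 fell, where 19.9% of all genes rose and 16.1% fell, with a median of 0.31 beside -0.0088. The 7 preadipocyte and fibroblast markers moved with them, with medians of -3.37 and 1.52, and their part in the result was not tested. The heparan sulphate list was also chosen with earlier results of these data known, so its counts are no independent test. Hs6st2, a sulphotransferase, changed by -3.04 ± 0.17 (limma adjusted p 2.58e-08), and Sulf2, which removes sulphate groups at the cell surface, by -2.51 ± 0.11 with differentiation and 0.06 ± 0.11 with the knockdown (limma adjusted p 0.789). The related sulphotransferase Hs6st1 went the other way, by 1.07 and -1.47. Sdc1, syndecan 1, and Gpc6, glypican 6, rose by 1.35 and 1.31 with the knockdown.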

How the data were processed

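RNA of 3 preadipocyte, 3 control siRNA and 3 PPAR gamma siRNA samples was hybridised to 9 single-channel arrays of mouse probe sets. The authors deposited 1 table of probe set values that are on a log2 scale, as their range shows, and normalised between arrays, as their near-equal medians show. Per the submitters' processing notes, MAS5, RMA and affy 1.16.0 were named, with no role or order. How background was corrected is not stated in any source used here. Values compressed toward a floor understate the changes of dim genes.

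From these values, 64 control probe sets were left out and limma 3.58.1 in R 4.3.3 fitted a mean per group to 45037 probe sets (lmFit, eBayes, two-sided, Benjamini-Hochberg over all of them, called at 0.05). GEO's platform annotation named 35877 probe sets, of which 34945 had 1 symbol and 932 had several, which were left out of gene values. The fit was tested on simulated data. Array number limits the precision.

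Members, gene lists, markers and tests were chosen with earlier results of these data known. Array values are given for members changed at least 2-fold in a called comparison with a highest group mean of at least 6, and for Vegfa, Pdgfra, Pdgfrb, Fgfr1, Egfr, Met, Kdr and Fgf21. From each gene list up to 2 called genes with the largest rise and 2 with the largest fall per comparison are named, and other genes were added after their values were seen (Sema3e, St14 and single markers). Promoters came from RefSeq (GRCm38.p6). In all, 20 alternative settings were run: other normalisation, filters, probe set choices, covariates and samples, and each array left out. Python 3.11.15 and pandas 2.3.3 wrote the tables.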

Additional observations from a re-analysis of the deposited data

How the results depend on the processing

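Apart from a minimum of 2-fold and 1 array left out, each of the 20 alternatives kept the counts of called members within 1.5 times the reported ones. The minimum of 2-fold lowered them by construction: 4 higher with differentiation in place of 9, 7 higher and 3 lower with the knockdown in place of 11 and 8, and 3 higher and 8 lower against preadipocytes in place of 11 and 15. Leaving out each array in turn gave 7 to 9 higher and 15 to 17 lower with differentiation, 10 to 11 higher and 7 to 8 lower with the knockdown, and 7 to 11 higher and 14 to 16 lower against preadipocytes, where the 7 came without preadipocyte replicate 2. Same-numbered arrays had correlations of deviations from -0.19 to 0.17, beside 0.29 for control siRNA replicate 1 with PPAR gamma siRNA replicate 3. These values gave no sign that the numbers pair the samples, but 3 arrays a group cannot exclude it. With a replicate block, 8 were higher and 15 lower with differentiation, 11 and 8 with the knockdown, and 10 and 15 against preadipocytes. In every alternative fit, 19 of 25 differentiation calls, 13 of 19 knockdown calls and 20 of 26 calls against preadipocytes were kept. With the mean of all probe sets per gene, Egfr reversed against preadipocytes, to 0.27 (limma adjusted p 0.0102) from -0.06, and was called higher with the knockdown (0.39, limma adjusted p 0.0009), since its probe sets disagree. The angiogenesis inhibitors and heparan sulphate genes had more falls than rises with differentiation and more rises than falls with the knockdown. Counts in these directions moved by less than 1.5 times in every alternative run on them. In the other direction, the count of 1 inhibitor in each comparison rested on the dim Sema3e. It was lost when dim probe sets were left out. Signal over background limits the dim members.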
